A study of Mus musculus with 12 samples.

Results

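Adenosine reaches the intestinal lumen and the spaces between cells from broken-down nucleotides, and absorptive epithelium takes it apart in steps. The 5 genes described here each serve one step of that route. Nt5e encodes CD73, a surface enzyme that removes the phosphate from AMP and so makes adenosine. Slc28a1 and Slc28a2 encode the sodium-coupled nucleoside carriers CNT1, which prefers pyrimidine nucleosides, and CNT2, which prefers purine nucleosides. Ada encodes adenosine deaminase, which turns adenosine and deoxyadenosine into inosine and deoxyinosine. Xdh encodes xanthine dehydrogenase, which carries the last steps of purine breakdown from hypoxanthine to xanthine and urate. In mouse small intestine, transcripts of several genes of this route are known to be most abundant in enterocytes near the villus tip.

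The members were chosen by symbol, as 5 of the 19012 gene symbols measured, and each has 1 transcript in the tables. Poly(A) RNA of mouse small intestine was sequenced in 12 libraries of 3 kinds, each from duodenum, jejunum and ileum. Villi, the differentiated finger-like part of the epithelium, gave 1 library per origin. Organoids, the epithelial structures grown from crypts and kept for 12 weeks in culture, gave 1 library per origin. Crypts, the pockets that hold stem, dividing and Paneth cells, gave 2 libraries per origin, numbered replicates 1 and 2. Villi and crypts were fresh isolates. No genotype, strain, age or treatment is given for any group, and nothing says whether replicates came from separate mice, so p-values measure the spread between these libraries, which may be technical. Levels are RPKM, reads scaled to exon length and to library size, a level per length that lets genes be compared with each other. Libraries held 2332849 to 10935217 reads in genes. Against crypts, 17 of 19 enterocyte genes were higher in villi by limma, and 7 of 7 Paneth cell markers and 4 of 5 stem cell markers were lower, the direction of the labels.

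Positions are on mm9 as the files give them, which do not say whether the start counts from 0 or 1. Nt5e lies on chromosome 9 at 88222477 to 88266926 on the plus strand, with 3549 bases of exon. Ada lies on chromosome 2 at 163552319 to 163575912 on the minus strand, with 1626 bases of exon. Xdh lies on chromosome 17 at 74233247 to 74299521 on the minus strand, with 4587 bases of exon. Slc28a1 lies on chromosome 7 at 88259684 to 88315301 on the plus strand, with 2846 bases of exon. Slc28a2 lies on chromosome 2 at 122252212 to 122286865 on the plus strand, with 3904 bases of exon. In GENCODE M21 no exon of another gene overlaps an exon of any of the 5.

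Since the 5 genes move together between villi and crypts, the 250 bases before the RefSeq start of those with an entry are shown, 5′ to 3′ on the gene's strand, to compare their composition. The windows are on GRCm38.p6, at chr2:163750240-163750489 for Ada, chr9:88327359-88327608 for Nt5e, chr7:81114549-81114798 for Slc28a1 and chr2:122426185-122426434 for Slc28a2. Capitals mark matches on either strand to GGGCGG (the GC box), AGATAA (factors such as Gata4), TTTAT (factors such as Cdx2) or CAAAGTC (Hnf4a), and neighbouring matches may overlap.
Ada: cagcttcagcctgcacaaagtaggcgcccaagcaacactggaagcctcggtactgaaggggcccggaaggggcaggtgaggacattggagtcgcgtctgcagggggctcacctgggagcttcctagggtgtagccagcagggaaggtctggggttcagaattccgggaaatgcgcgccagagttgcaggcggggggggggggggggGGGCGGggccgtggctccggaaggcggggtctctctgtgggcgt
Nt5e: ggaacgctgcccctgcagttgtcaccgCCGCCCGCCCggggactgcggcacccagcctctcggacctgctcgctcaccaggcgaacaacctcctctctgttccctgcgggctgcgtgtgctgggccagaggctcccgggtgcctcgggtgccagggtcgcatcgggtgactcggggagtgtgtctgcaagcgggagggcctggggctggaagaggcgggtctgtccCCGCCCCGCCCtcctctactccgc
Slc28a1: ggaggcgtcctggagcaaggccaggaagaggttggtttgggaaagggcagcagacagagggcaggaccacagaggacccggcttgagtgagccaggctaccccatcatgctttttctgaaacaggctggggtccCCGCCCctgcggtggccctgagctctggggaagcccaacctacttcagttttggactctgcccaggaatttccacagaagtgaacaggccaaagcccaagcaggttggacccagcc
Slc28a2: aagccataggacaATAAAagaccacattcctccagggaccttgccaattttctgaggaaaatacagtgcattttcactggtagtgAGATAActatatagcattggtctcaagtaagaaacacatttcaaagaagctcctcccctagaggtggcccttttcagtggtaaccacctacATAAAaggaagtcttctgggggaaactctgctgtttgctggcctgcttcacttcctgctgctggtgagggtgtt
The windows differ in base composition. Nt5e and Ada hold 21 and 14 CG dinucleotides, Slc28a1 holds 4 and Slc28a2 holds 0, against a median of 6 over 32851 promoters. GC content is 72% for Nt5e, 67.2% for Ada, 60.4% for Slc28a1 and 45.2% for Slc28a2. The GC box occurs 4 times in Nt5e and 1 time each in Ada and Slc28a1, and 32.7% of all windows hold it. Slc28a2 holds 1 AGATAA and 2 TTTAT, which 9.99% and 37.3% of all windows hold. CAAAGTC, present in 3.84% of all windows, matches none of the 4. A match is a run of letters and not a shown binding site.

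All 5 genes were far higher in villi than in crypts, and in each of them the lowest villus library lay above the highest crypt library. On the log2(RPKM + 1) scale Ada showed the largest difference and was the second most increased of the 11825 genes tested. In plain RPKM the lowest villus library was 14.8 times the highest crypt library for Nt5e and 13.1 times for Ada, so that order depends on the scale. Over all genes tested, 20.3% were higher in villi and 32.5% lower. With libraries rescaled by median-of-ratios size factors the calls were 3661 higher and 3011 lower, in place of 2402 and 3845, and the median over all genes was 0.02 in place of -0.19 in log2. Outside villi only 2 crypt libraries reached the level that the filter on low values asks of 3 libraries for Nt5e, so it passed only with villi counted and its call is a description. The other 4 were called higher, under this scaling too. Tests were limma on log2(RPKM + 1) with origin as a term and p-values adjusted across every tested gene by the Benjamini-Hochberg method. In bulk RNA, more cells of a type and more transcript per cell cannot be told apart.

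Nt5e had 35.4, 30.4 and 12.6 RPKM in villi of duodenum, jejunum and ileum. In organoids it was at 0.156, 0.182 and 0.164 RPKM in the same order, which is 6, 12 and 8 reads. In crypts it was at 0.0598, 0.853 and 0.466 RPKM in replicate 2 and at 0.107, 0.0969 and 0.0315 RPKM in replicate 1. All villus libraries lay above all others, and the crypt libraries held 1 to 28 reads of it. Its log2 difference between villi and crypts was 4.33 (SE 0.28, adjusted p = 9.05e-07). The log2(RPKM + 1) scale understates the change of a gene this low.

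Ada had 1237, 552 and 246 RPKM in villi of duodenum, jejunum and ileum. In organoids it was at 25.2, 2.32 and 3.53 RPKM in the same order. Crypts had 6.07, 18.7 and 5.98 RPKM in replicate 2 and 4.09, 3.95 and 3.09 RPKM in replicate 1. The deaminase was the most abundant of the 5 per length in every villus library. Its log2 difference between villi and crypts was 6.34 (SE 0.58, 95% interval 5.09 to 7.59, adjusted p = 5.58e-06). The lowest villus library was 13.1 times the highest crypt library. Duodenal organoids stood above the other two organoid libraries and above every crypt library.

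Xdh had 119, 100.2 and 55.5 RPKM in villi of duodenum, jejunum and ileum. In organoids it was at 1.65, 3.19 and 0.949 RPKM in the same order. Crypts had 14.5, 17.1 and 9.74 RPKM in replicate 2 and 2.19, 4.77 and 3.17 RPKM in replicate 1. Every replicate 2 crypt library lay above every replicate 1 crypt library. The log2 difference between villi and crypts was 3.49 (SE 0.49, adjusted p = 9.45e-05).

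Slc28a1, the pyrimidine-preferring carrier, had 48.8, 62.1 and 24.6 RPKM in villi of duodenum, jejunum and ileum. In organoids it was at 0.130, 1.98 and 0.331 RPKM in the same order. Crypts had 3.73, 18.5 and 3.25 RPKM in replicate 2 and 0.267, 2.58 and 0.471 RPKM in replicate 1. The jejunal library was the highest of its kind in villi, in organoids and in both crypt replicates. The log2 difference between villi and crypts was 3.54 (SE 0.54, adjusted p = 0.000178). The groups were closest here, the lowest villus library being 1.33 times the highest crypt library.

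Slc28a2, the purine-preferring carrier, had 74.5, 37.1 and 10.5 RPKM in villi of duodenum, jejunum and ileum. In organoids it was at 0.757, 0.496 and 0.948 RPKM in the same order. Crypts had 0.217, 1.16 and 0.449 RPKM in replicate 2 and 0.681, 1.26 and 1.20 RPKM in replicate 1. Its crypt and organoid values overlapped, and replicate 2 was the lower of the crypt pair at every origin. The log2 difference between villi and crypts was 4.17 (SE 0.42, adjusted p = 9.29e-06). A neighbouring copy, Slc28a2b, listed under the symbol Rp23-357i14.1, is 96.1% identical to Slc28a2 over 3738 aligned transcript bases and shares 1498 of its 3691 stretches of 50 bases, the read length. That copy had 22, 18 and 5 reads in villi of duodenum, jejunum and ileum and 0 in every organoid and crypt library. The sources used here do not say how reads that match both copies were placed, so the levels of Slc28a2 and its copy are uncertain to that extent.

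**Figure D1:**
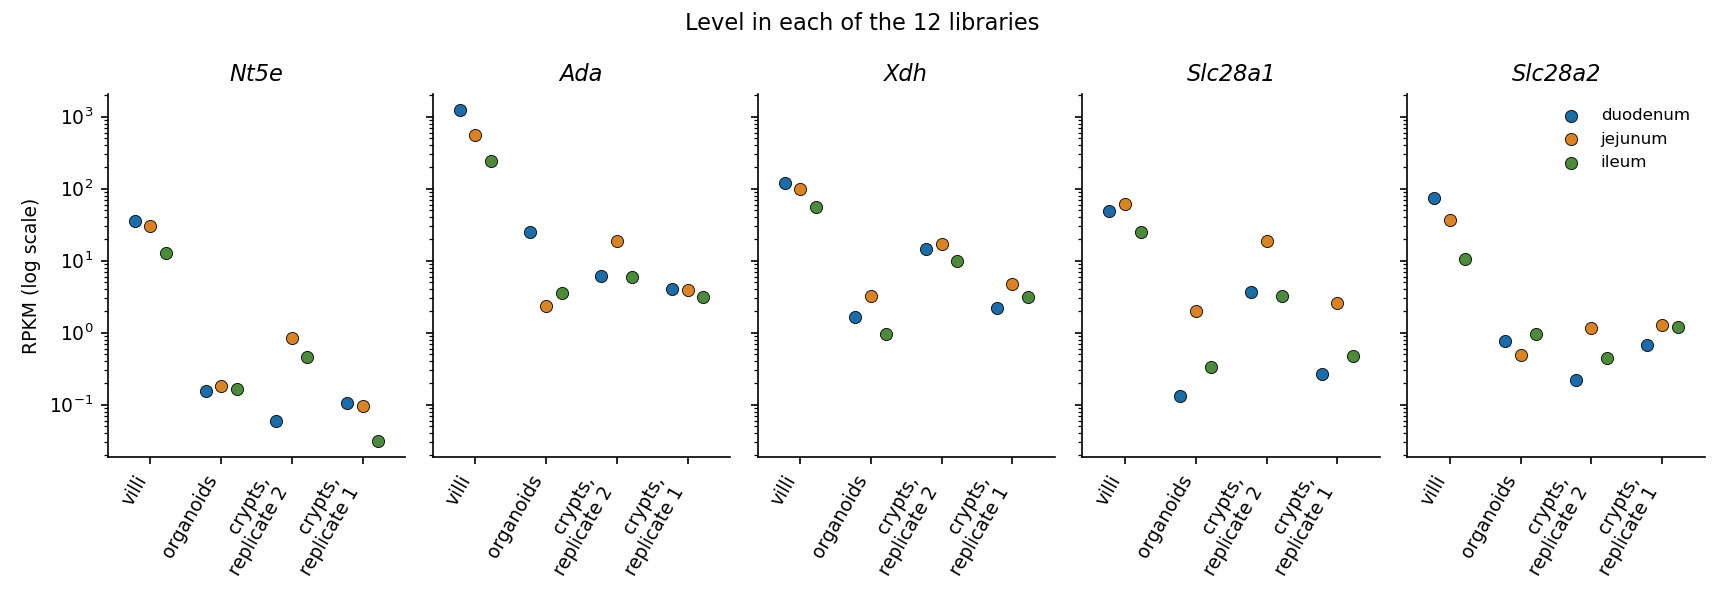
RPKM of the 5 genes (log axis) in each of the 12 libraries, with villi at the left, then organoids, crypt replicate 2 and crypt replicate 1, coloured by origin. Villi lie above all other libraries in each panel, and Ada in duodenal villi reaches 1237 RPKM.

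Organoids, set against villi, had all 5 genes lower. The log2 differences were -6.24 for Ada, -4.99 for Xdh, -4.71 for Slc28a1, -4.42 for Nt5e and -4.22 for Slc28a2. Their adjusted p-values by limma ran from 1.08e-06 to 3.9e-05, while 25.6% of all genes tested were lower in organoids. No organoid library overlapped a villus library for any of them. For Nt5e, which passed the filter only with villi counted, this too is a description.

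Against crypts, organoids were lower for Xdh alone among the 5, at a log2 difference of -1.49 (SE 0.49, adjusted p = 0.024 by limma). Over all genes tested, 24.0% were lower and 23.3% higher, so 1 call among 5 genes is near the background. The Xdh groups overlapped, since jejunal organoids at 3.19 RPKM lay above 2 crypt libraries, and the call was lost against crypt replicate 1 alone (log2 difference -0.61, adjusted p = 0.0801), without the filter on low values (0.0616) and without any 1 of the organoid libraries (0.0613 to 0.104). Slc28a1 differed by -1.17 (95% interval -2.34 to 0.00, adjusted p = 0.0924). With the crypt replicate number as a block the same difference had an adjusted p of 0.00233 in limma, and limma-voom gave -2.38 (adjusted p = 0.0344). Against crypt replicate 2 alone Slc28a1 was lower by -2.15 in log2 (adjusted p = 0.000343). Ada, Nt5e and Slc28a2 had log2 differences of 0.10, -0.09 and -0.05, with 95% intervals of -1.15 to 1.35, -0.68 to 0.51 and -0.96 to 0.87, and were not called.

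**Figure D2:**
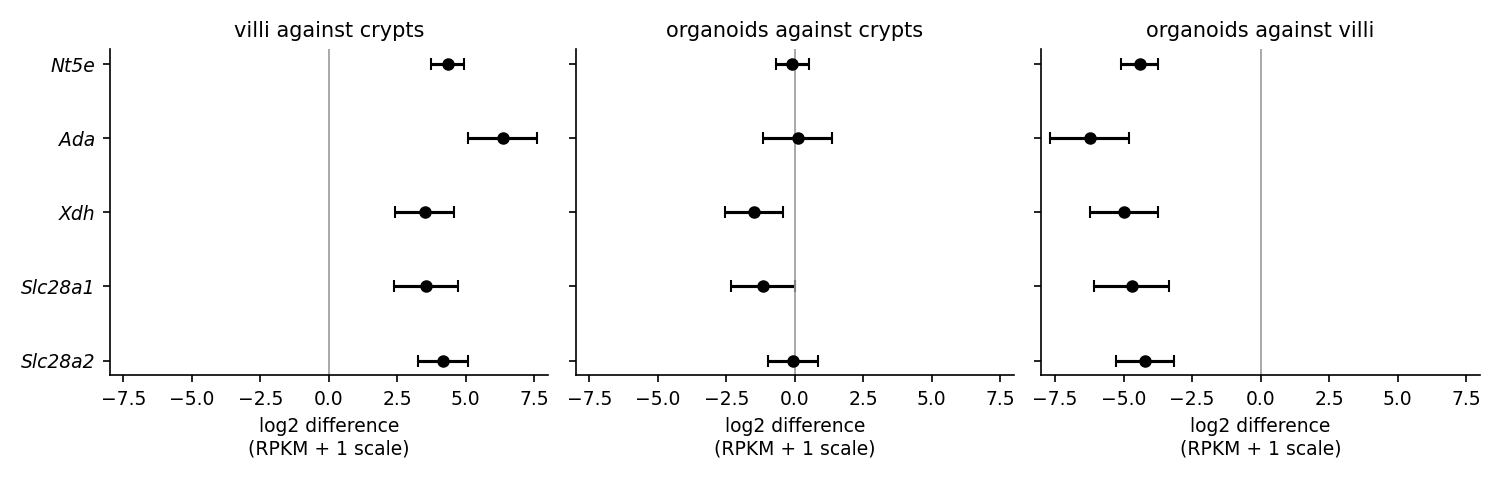
Log2 differences of the 5 genes on the log2(RPKM + 1) scale in the 3 tissue comparisons, with points for estimates and bars for 95% intervals. Villi against crypts lie between 3.49 and 6.34, organoids against villi between -6.24 and -4.22, and organoids against crypts near 0 except for Xdh and Slc28a1.

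In villi the ileal level was the lowest of the 3 origins for all 5 genes. With 1 villus library per origin this is a description without a test. Duodenal RPKM was 7.08 times the ileal RPKM for Slc28a2, 5.03 times for Ada, 2.82 times for Nt5e, 2.15 times for Xdh and 1.98 times for Slc28a1. On the log2(RPKM + 1) scale the ileal minus duodenal differences ran from -2.71 to -0.96, with a median of -1.42. The 19 enterocyte genes of a marker list had 14 lower in ileal villi and a median of -0.51. Over the 11825 tested genes 28.7% were lower and the median was 0.22. Slc28a2 and Ada had differences more negative than most, with 0.245% and 0.397% of tested genes below them.

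The other tissues had no such common order. Ada was 7.14 times as high in duodenal as in ileal organoids, resting on 1 duodenal library, and the duodenal to ileal ratio was 1.01 in crypt replicate 2 and 1.32 in crypt replicate 1. The Slc28a2 duodenal to ileal ratio was below 1 in organoids (0.798) and in both crypt replicates (0.484 and 0.566). The Slc28a2 ileal-duodenal difference was more negative in villi than in crypts by 3.03 in log2 (95% interval 1.56 to 4.50 lower, unadjusted p = 0.00265 by limma), which did not hold after adjustment (adjusted p = 0.492). For Nt5e the same quantity was -1.61 (unadjusted p = 0.0367, adjusted p = 1 by limma). Of 12740 genes tested for it, 0% were called by limma, none by limma-voom either, and 463 had an unadjusted p under 0.05.

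**Figure D3:**
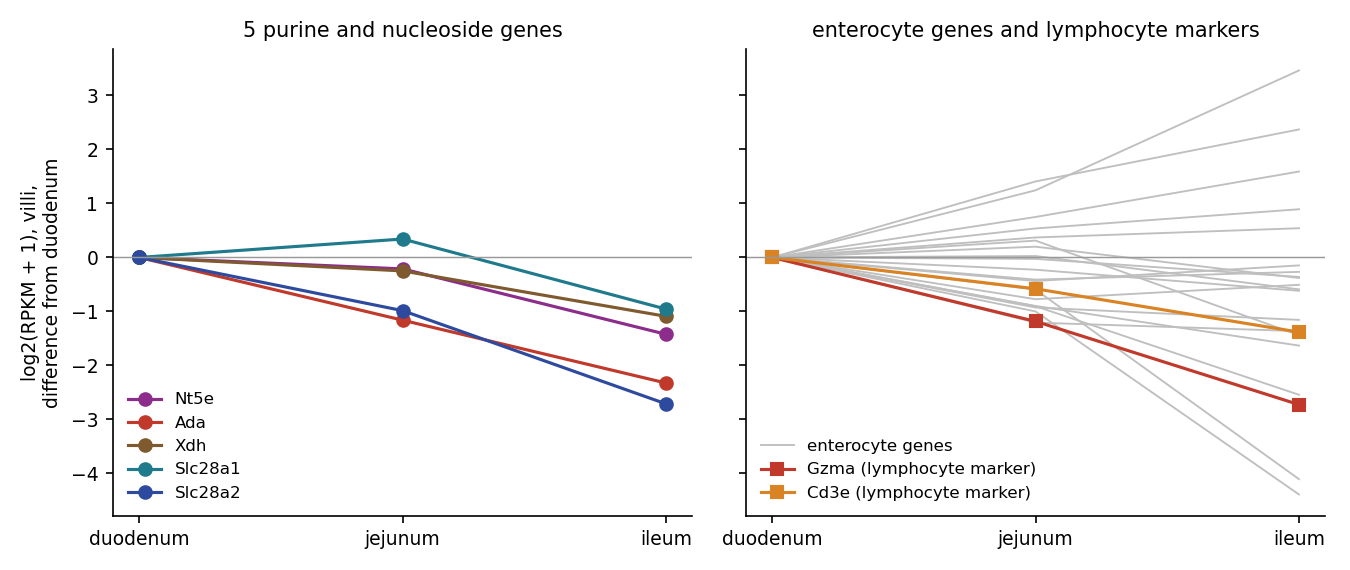
Villus levels relative to duodenum on the log2(RPKM + 1) scale along duodenum, jejunum and ileum, with the 5 genes at the left and, at the right, enterocyte genes (grey) with the lymphocyte markers Gzma and Cd3e. All 5 genes end below 0 in the ileum, between -2.71 and -0.96, and Gzma and Cd3e also end below 0.

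Over all tissues together, origin gave no call for any of the 5. In ileum against duodenum 0.609% of genes were called, and Ada had the largest difference of the 5 at -1.30 (95% interval -2.55 to -0.05, adjusted p = 0.552 by limma). In jejunum against duodenum 0% of 11825 genes were called by limma, 6 by limma-voom on recovered reads, and 343 had an unadjusted p under 0.05. Slc28a1 differed there by 1.32 (unadjusted p = 0.0301, adjusted p = 0.998 by limma). In ileum against jejunum 0.0423% were called and Slc28a1 differed by -1.49 (adjusted p = 0.834 by limma). That last difference had an adjusted p of 0.0335 with the crypt replicate number as a block in limma. With the block the genes called were 302 in ileum against duodenum, 8 in jejunum against duodenum and 32 in ileum against jejunum, in place of 72, 0 and 5. Between ileal and duodenal crypts 0.0360% of 11123 genes were called (4 genes, and 37 with the block), and the members' log2 differences lay between -0.17 and 0.32.

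Lymphocyte transcripts in the villus isolates were highest in duodenum and lowest in ileum, an order shared with Ada, Nt5e, Slc28a2 and Xdh but not with Slc28a1, which was highest in jejunum. Summed over 8 lymphocyte markers, the level was 184, 90.6 and 45.3 RPKM in villi of duodenum, jejunum and ileum, 0 to 0.212 RPKM in organoids and 0.708 to 3.32 RPKM in crypts. Of the list, 6 genes could be tested and all 6 passed the filter only with the villus libraries counted, so their higher level in villi is a description. Among them were Gzma at 109, 47.6 and 15.7 RPKM and Cd3e at 17.5, 11.4 and 6.09 RPKM. In organoids 5 of the 8 were at 0 in all libraries. The 9 stromal and vascular markers summed to 17.6 to 47.7 RPKM in villi, 5.18 to 8.10 in organoids and 0.610 to 5.24 in crypts, but were highest in ileal villi. Of the MHC class II markers 3 of 4 were called higher in villi, and their sum was 398, 267 and 384 RPKM in villi of duodenum, jejunum and ileum. The part of these cells in the levels of the 5 genes was not tested.

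Genes with the most similar pattern were sought over the 9 combinations of tissue and origin, among 6395 genes averaging at least 5 RPKM. The correlations are descriptions over groups that share the contrast of villi with the rest. For Slc28a2 the nearest were Nkg7 (r = 0.998), Enpp3 (0.991) and Gzma (0.989), of which Nkg7 and Gzma are known from cytotoxic lymphocytes and Enpp3 encodes a surface nucleotide hydrolase. For Ada they were Prdx5 (0.988), Ccl5 (0.987) and D17H6S53E (0.982), Ccl5 being a chemokine gene of lymphocytes and Prdx5 a peroxiredoxin. For Nt5e they were Abhd2 (0.995), Cd7 (0.993) and Uap1l1 (0.991), Cd7 being a lymphocyte surface gene. For Slc28a1 they were Sec24d (0.989), Slc5a4a (0.987) and Gdpd2 (0.987). For Xdh they were 4933426M11Rik (0.996), Ehbp1l1 (0.995) and Bcl2l1 (0.992). Lymphocyte genes appeared among the nearest 3 for Slc28a2, Ada and Nt5e, and among the 5 genes themselves r ran from 0.877 between Ada and Slc28a1 to 0.987 between Nt5e and Slc28a2.

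The second crypt replicate carried far more enterocyte transcript than the first, and not all of the 5 genes followed. Of 11123 genes tested, 7.17% were higher and 0.791% lower in replicate 2, and after median-of-ratios scaling 538 were higher and 243 lower in place of 797 and 88. Of the 19 enterocyte genes, 18 were called higher, with a median log2 difference of 3.18. The lowest of them was Apob at 2.20 (SE 0.23), an apolipoprotein, the middle one Mep1b at 3.18, a brush border protease, and the highest Cyp3a11 at 4.34, a cytochrome P450. Slc28a1 and Xdh rose, by 1.96 (SE 0.27, adjusted p = 0.0125) and 1.77 (SE 0.28, adjusted p = 0.0185) in limma. Ada differed by 1.08 (SE 0.35, adjusted p = 0.114), Nt5e by 0.40 (SE 0.19, adjusted p = 0.23) and Slc28a2 by -0.38 (SE 0.19, adjusted p = 0.249), and none of these 3 was called. Nt5e passed the filter among crypts only through jejunal and ileal replicate 2.

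Markers of other cell types also differed between the crypt replicates. Of 7 Paneth cell markers 6 were lower in replicate 2, with a median log2 difference of -1.56, and their sum was 2112, 11189 and 20819 RPKM in replicate 2 of duodenum, jejunum and ileum, against 8446, 24068 and 68715 RPKM in replicate 1. All 4 MHC class II markers were lower, and their sum was 8.29 to 19.0 RPKM in replicate 2, against 60.9 to 412 RPKM in replicate 1. No lymphocyte marker passed the filter among crypts, and the 8 summed to 1.56 to 3.32 RPKM in replicate 2, against 0.708 to 0.965 RPKM in replicate 1. The part of these cells in the differences of the 5 genes was not tested.

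All 5 differences lay below that of Apob, the lowest enterocyte gene, on the log2(RPKM + 1) scale. With a pseudocount of 0.1 the order held for Ada (1.24), Nt5e (1.34), Slc28a2 (-0.89) and Xdh (2.03), each below the lowest enterocyte gene at 2.36, while Slc28a1 (2.91) lay above 4 of the 19. The Slc28a1 call was lost without the origin term (adjusted p = 0.0763 in limma) and the Xdh call without the filter on low values (0.0505). Ada was called by limma when a duodenal crypt library was left out, with a difference of 1.38. The Nt5e difference was then 0.63. It is a description, since Nt5e passed the filter among crypts only through jejunal and ileal replicate 2. Without jejunal crypt replicate 2 the Ada difference was 0.62.

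The level in crypt replicate 2 as a percent of the villus level is another measure, which needs no pseudocount and no value of replicate 1. For Ada it was 0.491%, 3.39% and 2.43% in duodenum, jejunum and ileum. For Nt5e it was 0.169%, 2.8% and 3.71% in the same order. For Slc28a2 it was 0.292%, 3.13% and 4.26%. The 19 enterocyte genes had medians of 35.7%, 46.6% and 25.5%, and the only enterocyte gene below any of these 3 was lactase, Lct, in the ileum at 1.68%. Ada, Nt5e and Slc28a2 lay below all 19 enterocyte genes in duodenum and jejunum and below 18 of 19 in ileum.

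Xdh and Slc28a1 lay nearer to the enterocyte genes by the same measure. Xdh was at 12.2%, 17.1% and 17.5% of its villus level, and Slc28a1 at 7.64%, 29.8% and 13.2%, in duodenum, jejunum and ileum. In the same order, Xdh lay above 5, 0 and 5 of the 19 enterocyte genes and Slc28a1 above 1, 6 and 3. Above Xdh in the order of the route, Pnp, the phosphorylase that acts on inosine, was at 53.8%, 61.3% and 60.2%. Gda, which deaminates guanine, was at 13.6%, 43.7% and 24.1%. Enpp3, which cuts extracellular nucleotides, was at 0.989%, 3.75% and 3.98%, close to Ada, Nt5e and Slc28a2. It is also on the list of villus tip genes but does not stand for that list. Of the 8 tip genes, 3 were called higher in replicate 2 by limma and 5 were not, with a median log2 difference of 0.89. Over all genes tested 7.17% were called higher. The lymphocyte marker Gzma was at 0.663%, 2.33% and 4.94% in the same order, the last above Ada, Nt5e, Slc28a2 and Enpp3 in ileum.

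Measured as a share of the log2 distance from crypt replicate 1 to villi, crypt replicate 2 had covered 6.0%, 29.3% and 13.0% for Ada in duodenum, jejunum and ileum. The share was -1.25%, 15.6% and 13.6% for Nt5e and negative at each origin for Slc28a2. It was 43.6%, 39.9% and 36.3% for Xdh and 35.9%, 59.1% and 37.1% for Slc28a1. The enterocyte medians were 65.7%, 72.1% and 64.0%. Of the 8 villus tip genes, the 5 with a distance above 1 in log2 had medians of 42.0%, 60.9% and 42.8%. Enpp3 was at 17.1%, 30.3% and 4.27%, the lowest of these tip genes in jejunum and ileum. Crypt replicate 1 enters both parts of this share. Nt5e rests on 2, 28 and 17 reads in crypt replicate 2 and on 2, 3 and 1 reads in replicate 1, so its share is poorly fixed.

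**Figure D4:**
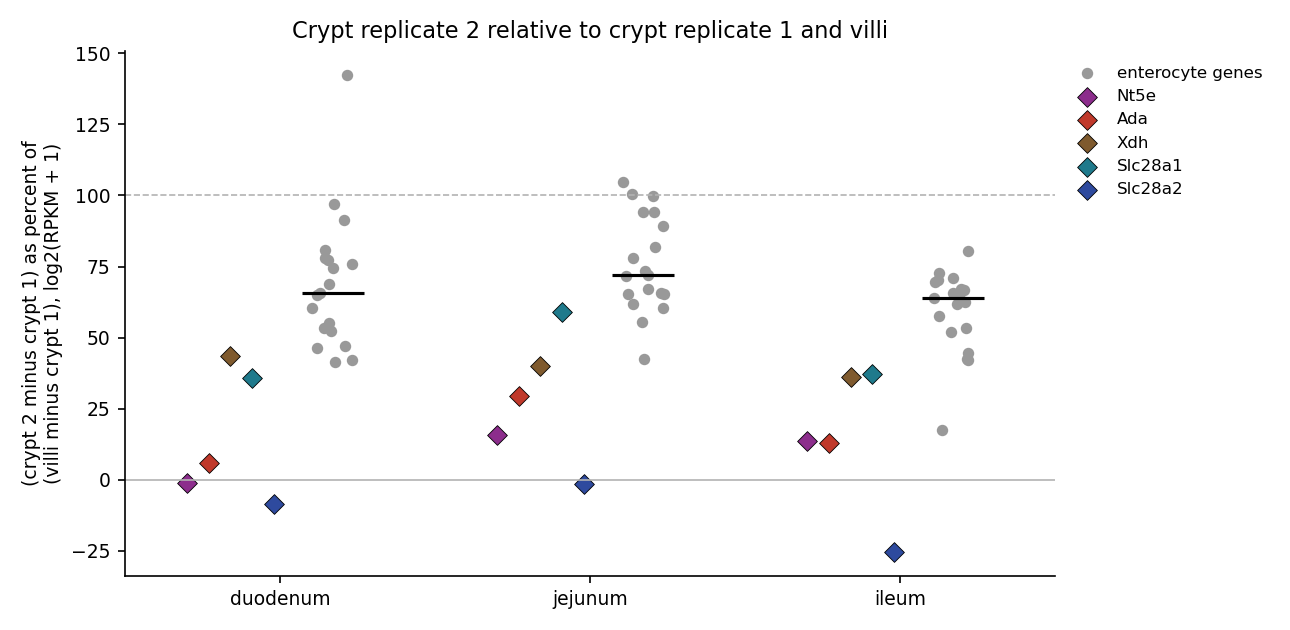
Crypt replicate 2 minus crypt replicate 1 as a percent of villi minus crypt replicate 1, in log2(RPKM + 1), at each origin for the 5 genes (diamonds) and 19 enterocyte genes (grey points, bar at the median). Ada, Nt5e and Slc28a2 lie at or below 29.3%, against enterocyte medians of 64.0% to 72.1%.

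Other genes of nucleotide metabolism were counted by list, without a test of the list. Over all tested genes 20.3% were higher and 32.5% lower in villi than in crypts, with a median log2 difference of -0.19. Of 20 other genes of purine salvage and degradation, 15 could be tested, 3 were higher and 5 lower in villi, with a median of -0.36, shares near those over all genes. The higher ones were Gda (3.58), Pnp (1.41) and Aprt (1.34), which recycles adenine. Lower were Ahcy (-1.60), which frees adenosine from S-adenosylhomocysteine, Dguok and Dck (-1.14 each), which phosphorylate deoxynucleosides, and Ampd2 (-1.06), which deaminates AMP.

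Purine synthesis builds the ring from small precursors. Of its 11 genes tested, 8 were lower in villi, and 7 after rescaling, with a median of -2.21, led by Atic (-3.21), Paics (-3.10), Gart (-2.60) and Prps2 (-2.36). Paics, which carries 2 middle steps of the pathway, had 0.995, 1.90 and 2.29 RPKM in villi of duodenum, jejunum and ileum, against 30.5, 18.1 and 17.9 RPKM in crypt replicate 2 of the same origins.

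Surface nucleotide hydrolases other than Nt5e had 5 of 7 tested genes higher in villi, with a median of 1.59. Enpp3 differed by 5.10 (adjusted p = 2.81e-05 by limma) and had 206, 117 and 11.3 RPKM in villi of duodenum, jejunum and ileum, against 0.27 to 4.38 RPKM in crypts. Alpi (3.77) and Akp3 (3.22), both intestinal alkaline phosphatases, and Entpd8 (1.59), which removes phosphates from ATP and ADP, were also higher. Akp3 was mainly duodenal, with 394, 4.88 and 9.87 RPKM in villi of duodenum, jejunum and ileum. Its groups overlapped, since duodenal crypt replicate 2 had 106 RPKM. Alpi is also on the enterocyte list.

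Of the other nucleoside and nucleobase transporters, 1 was higher and 3 lower among 6 tested. Slc29a1, the equilibrative carrier ENT1, had 1.48, 2.10 and 1.93 RPKM in villi of duodenum, jejunum and ileum, against 19.98 to 29.2 RPKM in crypts, a log2 difference of -3.13 (adjusted p = 1.16e-06 by limma). Its relative Slc29a2 differed by -2.03 and the third concentrative carrier, Slc28a3, by -0.64, a call lost after rescaling (adjusted p = 0.0829 by limma). The sodium-coupled nucleobase carrier listed as 2010107G12Rik, now Slc23a4, was higher by 2.80. The concentrative carriers Slc28a1 and Slc28a2 and the equilibrative carriers Slc29a1 and Slc29a2 had opposite directions between villi and crypts. This did not extend to the whole families, since Slc28a3 was lower in villi and Slc29a3 and Slc29a4 were not called.

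Receptors and exit routes had few genes. The adenosine receptor Adora2b was higher in villi by 2.5 in log2, with 20.9, 16.9 and 1.57 RPKM in villi of duodenum, jejunum and ileum, and Adora2a differed by 0.64. Both passed the filter only with villi counted, as Nt5e did. Adora1 differed by -0.84. Of the urate transporters, 3 of 4 tested were higher, Slc2a9 by 1.91, Abcg2 by 1.84 and Slc17a4 by 1.83. Pyrimidine salvage and degradation had 5 higher and 4 lower of 14 tested, with Upp1 (2.35) and Cda (1.96), which break down uridine and cytidine, among the higher and Tk1 (-3.32) and Dctd (-2.55), which serve thymidine nucleotide supply, among the lower.

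In organoids, set against crypts, none of the 5 genes was called higher, and over all genes 23.3% were higher and 24.0% lower. Of the 15 tested purine salvage genes 5 were higher and 1 lower, with Hprt1 (1.61), Aprt (1.31), Adk (1.15, lost in limma-voom with adjusted p = 0.07) and Nt5c2 (1.04) among the higher and Ampd2 (-1.59) lower. Hprt1, which recycles hypoxanthine and guanine, had 128, 94.2 and 167 RPKM in organoids of duodenum, jejunum and ileum, against 23.1 to 78.6 RPKM in crypts. Of the 11 synthesis genes 5 were higher, led by Paics (1.89) and Prps1 (1.57), and 3 lower. Of 6 other transporters 3 were lower, 2010107G12Rik by -1.40, Slc28a3 by -0.92 and Slc29a2 by -0.85.

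**Figure D5:**
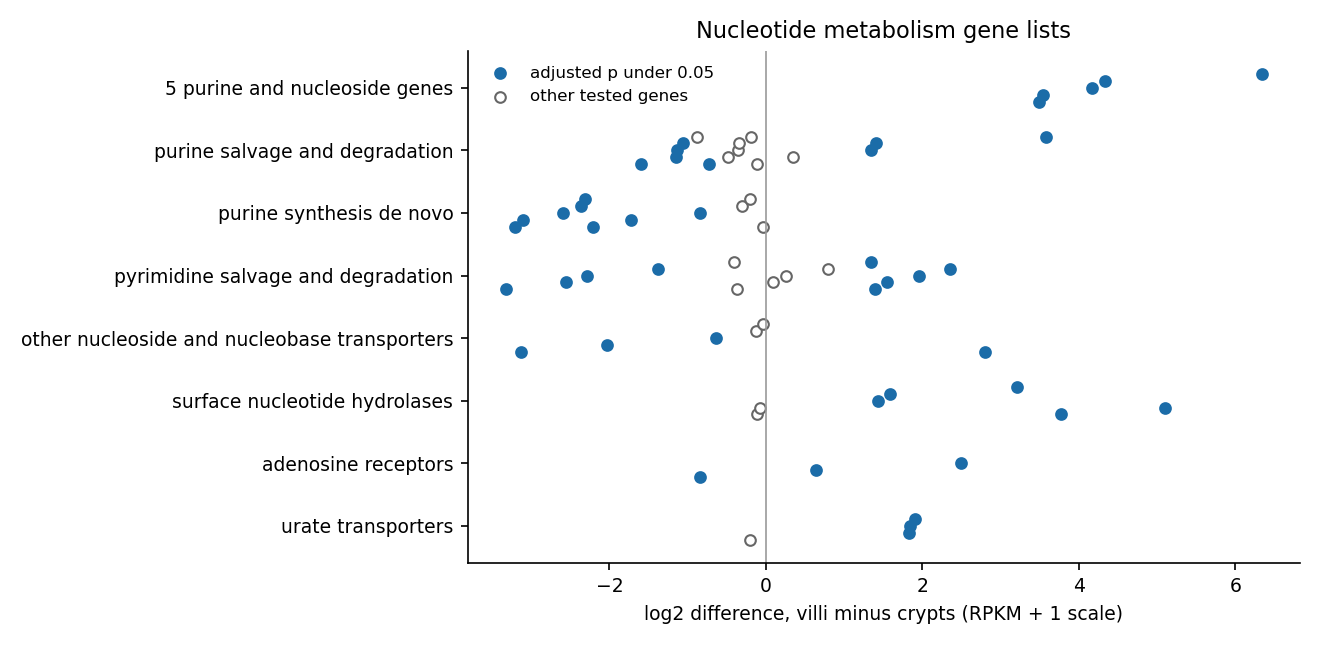
Log2 differences between villi and crypts (RPKM + 1 scale) of every tested gene on the nucleotide metabolism lists, with filled points for an adjusted p under 0.05. The 5 genes lie between 3.49 and 6.34, surface hydrolases reach 5.10, and the 8 called purine synthesis genes lie below 0, of which 7 stay called after rescaling.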

How the data were processed

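Poly(A) RNA was purified, made into SOLiD libraries and read as 50-base reads, per the labels' protocols. BWA and mm9 are named in the submitters' processing notes, without versions, and the sources used here do not name a counting method. The authors deposited RPKM per transcript, 21247 transcripts in all, and no counts. The transcript with the longest exons stood for each symbol. RPKM times exon length gave whole reads within 0.02 for at least 99.95% of values, which showed the depth (5268480 to 18591819 reads in total, 44.3% to 75.8% of them in genes).

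From these, log2(RPKM + 1) was tested with limma 3.58.1 (R 4.3.3), adjusted over all genes. Tissue and origin were additive terms over 12 libraries, with 7 residual degrees of freedom. Crypt libraries alone were fitted for origin and for replicate number, and group means for ileal-duodenal differences between tissues. A gene was tested if at least 3 libraries reached the RPKM that 10 reads give at median depth (2 libraries among crypts, 1 for differences between tissues) and it had 15 reads in all. Tests were checked on simulated counts, drawn independently around the mean of each gene except for planted changes. Beyond these the simulation held no difference between tissues, origins or crypt replicates, so it cannot show how the tests fare with such structure. The alternatives were another pseudocount, no filter, median-of-ratios scaling, limma-voom, another transcript choice, a replicate block and leaving out each library. Crypt replicates 2 minus 1 correlated between origins at 0.42, 0.51 and 0.79 over 11123 genes. Libraries with the same number thus deviated together, but the labels do not say that they belong together. The tissue and origin fits hold no replicate term, and the block is an alternative printed where it changes a result.

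The 5 members and all lists were chosen with earlier results of these data known. Lists were matched by symbol for 162 of 169 entries. Of each nucleotide list the called genes with the largest change, at most 4 per comparison, were named, and for each member its 3 nearest genes. The percent of the villus level, crypt replicates taken singly and the smaller pseudocount for the crypt order were added after seeing the data, as were the mentions of Cd3e, Gzma and Lct and of Pnp, Gda and Enpp3 in the crypt comparison. Promoter windows are from RefSeq on GRCm38.p6, found for 4 of the 5 members.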

Additional observations from a re-analysis of the deposited data

Results flagged for a closer look

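Of the 5 genes, Ada and Slc28a1 each had 1 crypt library far from the other 5. Ada in jejunal crypt replicate 2, at 18.7 RPKM, was separated from the next highest crypt library by 0.81 of the whole range over the 6 crypt libraries, where 0.625 is the 95% critical value of Dixon's test. Slc28a1 in the same library, at 18.5 RPKM, was separated by 0.81 of its range. Dixon's test takes its values as draws from 1 population. These 6 libraries differ in origin and replicate number, so its chance level does not apply and the marks are descriptions. Without that library the Ada difference between crypt replicates 2 and 1 was 0.62 and that of Slc28a1 was 1.71 in log2(RPKM + 1).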

How the results depend on the processing

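Differences of the 5 genes between villi and crypts and between organoids and villi kept their direction and their call in every alternative run. Over all comparisons, 304 of 320 values of the 5 genes did so under other settings and 472 of 520 with a library left out. With the crypt replicate number as a block, or replicate block, genes called moved to 302 for ileum against duodenum, 8 for jejunum against duodenum, 32 for ileum against jejunum and 37 for ileal against duodenal crypts, in place of 72, 0, 5 and 4. The block changed no call of the 5 genes other than those of Slc28a1 given above. A pseudocount of 0.1 gave 113, 9 and 1 for ileum against duodenum, ileum against jejunum and ileal crypts. Without the filter these were 17, 0 and 0, crypt replicate 2 against 1 gave 340 in place of 885, and the ileal-duodenal differences gave 362 (organoids minus crypts) and 497 (villi minus crypts) in place of 0. Limma-voom gave 131, 6 and 0 for ileum against duodenum, jejunum against duodenum and ileal crypts. The cause was not tested.

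The reversed values were all uncalled. For organoids against crypts they were -0.20 (limma-voom) and -0.44 (crypt replicate 2 alone) for Ada, 0.11 (crypt replicate 1 alone) for Nt5e and 0.14 (crypt replicate 2 alone) for Slc28a2. Slc28a1 gave 0.0934 in ileum against duodenum (pseudocount 0.1) and -0.23 in ileal against duodenal crypts (limma-voom). Slc28a2 in jejunum against duodenum gave -0.0739 (scaling) and -0.0282 (limma-voom).

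Leaving out each library gave 4606 to 6645 genes for villi against crypts, 3563 (without ileal organoids) to 6378 for organoids against crypts and 6237 to 7756 for organoids against villi. It gave 34 (without duodenal villi) to 94 for ileum against duodenum, 0 to 6 for jejunum against duodenum, 0 to 11 for ileum against jejunum, 0 to 6 for ileal crypts, and 466 (without ileal crypt replicate 1) to 2547 (without duodenal crypt replicate 1) for crypt replicate 2 against 1. Log2 differences that changed sign ranged as follows. Organoids against crypts gave -0.68 to 0.85 for Ada, -0.23 to 0.0319 for Nt5e and -0.38 to 0.20 for Slc28a2. Ileum against duodenum gave -0.44 to 0.0643 for Nt5e, -0.60 to 0.13 for Slc28a1 and -0.75 to 0.0974 for Slc28a2. Jejunum against duodenum gave -0.25 to 0.55 for Slc28a2 and -0.12 to 0.74 for Xdh, and ileum against jejunum -0.74 to 0.0872 for Slc28a2. Ileal against duodenal crypts gave -0.55 to 0.22 for Ada, -0.0704 to 0.44 for Nt5e, -0.92 to 0.98 for Slc28a1 and -1.21 to 1.07 for Xdh. The ileal-duodenal difference of organoids minus crypts gave -0.43 to 0.0797 for Nt5e, -0.74 to 1.16 for Slc28a1, -0.47 to 0.13 for Slc28a2 and -1.51 to 0.77 for Xdh, and that of villi minus crypts -2.16 to 0.12 for Xdh.

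Depth limits Nt5e outside villi most, since it rests there on 28 reads or fewer in each library. With 1 library per origin in villi and organoids, the tissue and origin fits share 1 estimate of the spread over all 12 libraries. Only the fits of ileal-duodenal differences between tissues take the spread from the crypt pairs alone.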
